A study of Mus musculus with 9 samples.

Results

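The genes of the T cell receptor (TCR) complex and of the signalling chain behind it were followed across 9 expression arrays of mouse regulatory T cells. The set was written out as a list of 45 genes: the receptor chains, co-receptors and other surface receptors, the first tyrosine kinases, adaptors, negative regulators and the first enzymes of each branch. Of these, 41 had a probe set carrying their symbol alone in the platform annotation used here, and Lck, Skap1, Cblb and Malt1 had none and were dropped. Another, Plcg1, lay below the signal threshold of 4.979 used for testing, so 40 members were tested, among 7436 genes tested of 12393 on the arrays. The rule that lists the members uses no measured value.

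The cells were CD4+CD25+ regulatory T cells (Treg), separated with magnets from mice of the C57BL6 strain. There were 3 arrays per group: wild type, mice whose Sirt1 was deleted conditionally by a CD4 Cre (CD4-cre below), and mice whose Sirt1 was deleted conditionally by a Foxp3 Cre (Foxp3-cre below). Sirt1 is an NAD-dependent deacetylase of proteins, and the series title asks how targeting it bears on Treg function. The CD4 driver is active in all T cells that pass through a CD4-positive stage, and the Foxp3 driver in cells that transcribe Foxp3, the gene of the factor that defines Treg. Whether the wild type mice carried a Cre, which part of Sirt1 was removed, and how old the mice were is not stated in the labels read here. The samples of a group are described as independent but not as separate animals, so a p-value here measures only the spread among them, part of which may be technical.

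The TCR has no enzyme of its own. When it binds its ligand, the kinase LCK, which CD4 can carry, phosphorylates the tails of the CD3 and zeta chains. ZAP70 docks there and phosphorylates the adaptors LAT and SLP-76. The assembled complex activates phospholipase C gamma, whose products open the calcium branch that ends in NFAT and the diacylglycerol branch that leads through RASGRP1 to Ras and through protein kinase C theta and BCL10 to NF-kB. Treg depend on this receptor for their suppressive state, and brakes on the chain, such as CSK, PTPN22, SHP-1, CBL and the diacylglycerol kinases, set how strongly it fires.

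Values are log2 signals, so a difference of 1 is a doubling of signal, and differences are group means subtracted. A gene was called changed at a limma adjusted p below 0.05 over all 7436 genes. The targeted gene did not separate the groups: the Sirt1 probe set read 7.53 ± 0.66 in wild type (SD, n = 3, as for the next values), 7.62 ± 0.06 with the CD4 Cre and 7.55 ± 0.10 with the Foxp3 Cre. Because the removed part is unknown, that probe set may lie outside it and check nothing. The marker genes of the labelled cell type were present, with Il2ra, which encodes CD25, at mean signals of 8.48, 8.47 and 8.60, whereas Foxp3 read 9.39 ± 0.26 in wild type and 9.66 ± 0.04 in CD4-cre but 2.96 ± 0.37 in Foxp3-cre. Wild type replicate 2 stood apart: it correlated at 0.982 to 0.987 with the other arrays, which reached 0.992 or more among themselves, and its actin 5' minus 3' control signal was -1.53 against -0.68 to -0.45 elsewhere. The counts of members are therefore given again without that array. In bulk RNA, fewer cells of a type and less RNA per cell cannot be told apart.

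Few members of the chain were called in any contrast. Against wild type, 1 of 40 members was called in CD4-cre, where Pik3cg rose, and 3 were called in Foxp3-cre, where Pik3cg rose and Prkcq and Sit1 fell. Over all genes tested, limma called 0.659% in CD4-cre and 3.36% in Foxp3-cre. Between the knockouts it called 0 of 40 members, against 0.0134% of all genes, which is Foxp3 alone. At an unadjusted p under 0.05, 10 of 40 members passed in each knockout, or 25%, against 14.1% and 21.3% of all genes tested. Between the knockouts 3 passed, or 7.5%, against 11.3%.

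The sizes were small. Member differences ran from -0.53 to 0.65 in CD4-cre, with a median of 0.01 against 0.03 for all genes, and from -0.65 to 0.66 in Foxp3-cre, with a median of -0.05 against 0.01. The 3 arrays of a knockout lay wholly outside the 3 of wild type for 10 members in CD4-cre (3 above, 7 below) and for 11 in Foxp3-cre (3 above, 8 below). Over all genes that share was 21% and 23.4%, close to the members' 25% and 27.5%. Between the knockouts 15 members did not overlap (4 above in Foxp3-cre, 11 below), or 37.5% against 29.7% of all genes. Both knockouts were set against the same wild type arrays, so their differences are not independent of each other.

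Without wild type replicate 2 the called members were Txk and Pik3cg in CD4-cre, and Txk, Sit1, Pik3cg and Prkcq in Foxp3-cre, and Sit1 between the knockouts. The shares of all genes called in that fit were 2.57%, 7.63% and 0.968%. At an unadjusted p under 0.05 it passed 12, 18 and 9 of 40 members, against 21.6%, 26.6% and 21.5% of all genes. Set against the remaining pair of wild type arrays, 20 members did not overlap in CD4-cre and 20 in Foxp3-cre, each with 3 above and 17 below, or 50% against 41.4% and 39.8% of all genes. The median member difference became -0.06 in CD4-cre and -0.09 in Foxp3-cre, beside 0.00 and -0.01 for all genes. In CD4-cre 29 of 40 members were then lower than wild type, and in Foxp3-cre 31, against 49.1% and 53.9% of all genes. The sign turned for 11 members in CD4-cre, 10 of which had been above wild type, and for 9 in Foxp3-cre, 8 of which had been above, while it turned for 24.5% and 20.6% of all genes.

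**Figure D1:**
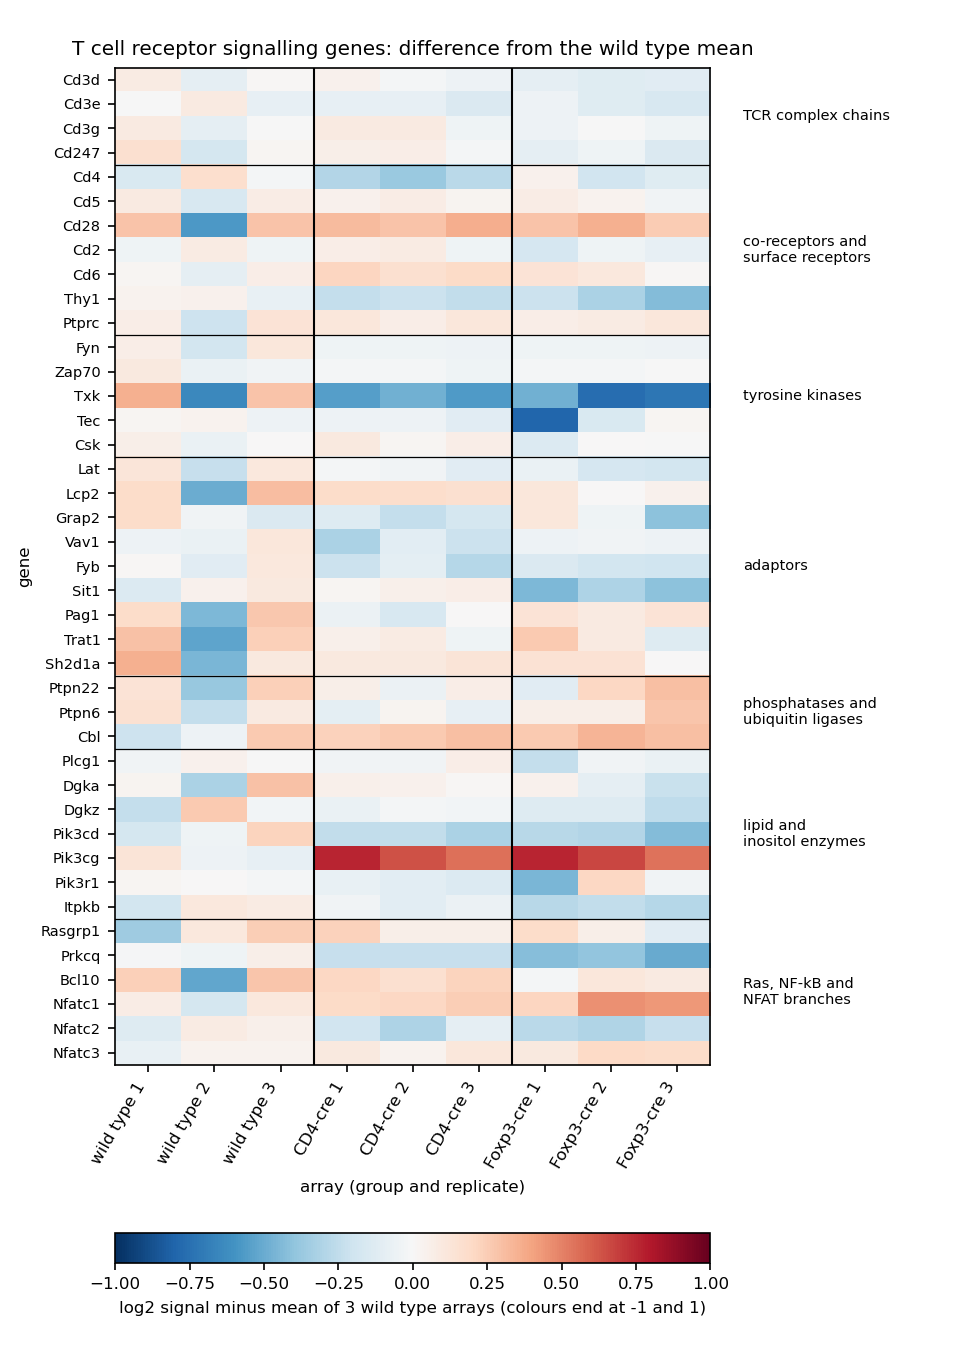
Each row is 1 of the 41 members on the arrays and each column 1 of the 9 arrays; colour gives the log2 signal minus the mean of that gene over the 3 wild type arrays. The column of wild type replicate 2 departs from its neighbours for genes such as Txk and Cd28, while the knockout columns of Pik3cg are shifted up and those of Prkcq down.

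No signal chain of the receptor was called in any contrast. With all arrays, none differed from wild type by more than 0.11 on its brightest probe set. Without wild type replicate 2, Cd3d, Cd3e, Cd3g and Cd247 differed by -0.06, -0.06, 0.00 and -0.06 in CD4-cre. In Foxp3-cre they then differed by -0.15, -0.07, -0.08 and -0.18, and none was called. CD3 delta, gamma and epsilon and the zeta chain (Cd247) carry the motifs that are phosphorylated on engagement, and the receptor needs all of them to reach the surface. Cd3d read 12.24, 12.07 and 12.17 on the wild type arrays, 12.20, 12.14 and 12.11 on the CD4-cre arrays and 12.07, 12.04 and 12.05 on the Foxp3-cre arrays. Cd3e read 11.06, 11.15 and 10.98, then 10.98, 10.98 and 10.92, then 11.01, 10.94 and 10.90 in the same order of groups. For Cd3d the wild type arrays overlapped CD4-cre and met Foxp3-cre at 12.07, and the Foxp3-cre arrays lay below those of CD4-cre. For Cd3e the CD4-cre arrays lay just below the wild type arrays, by less than the rounding shown, and the Foxp3-cre arrays overlapped both.

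Cd3g read 11.61, 11.43 and 11.52 on the wild type arrays, 11.61, 11.61 and 11.48 on the CD4-cre arrays and 11.47, 11.52 and 11.48 on the Foxp3-cre arrays. Cd247 read 10.03, 9.70 and 9.89, then 9.93, 9.94 and 9.85, then 9.78, 9.83 and 9.73. The 3 groups overlapped for Cd3g. For Cd247 both knockouts overlapped wild type while the Foxp3-cre arrays lay below those of CD4-cre. Dimmer Cd247 probe sets above the threshold differed from wild type by 0.30 and 0.33 and by -0.05 and -0.04 in the CD4-cre and Foxp3-cre arrays. The first of these read 8.68, 6.81 and 8.16 on the wild type arrays and 8.09 to 8.25 on the knockout arrays. Its higher knockout means thus rested on wild type replicate 2. The intervals show how much change these arrays leave room for: in CD4-cre the 95% interval of the difference ran from -0.18 to 0.15 for Cd3d, from -0.27 to 0.06 for Cd3e, from -0.13 to 0.22 for Cd3g and from -0.18 to 0.24 for Cd247. In Foxp3-cre the same intervals were -0.27 to 0.06, -0.28 to 0.05, -0.21 to 0.14 and -0.31 to 0.12. The lowest limma adjusted p of the 4 chains was 0.547 in CD4-cre and 0.399 in Foxp3-cre. Cd3d, Cd3g and Cd3e are neighbours on chromosome 9 of GRCm38.p6: the start sites of the divergent pair Cd3d and Cd3g lie 1355 bases apart, and Cd3e starts 27825 bases from Cd3d.

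None of the 7 surface receptors was called in either knockout. Thy1, a glycolipid-anchored protein that marks T cells, read 11.26, 11.27 and 11.15 on the wild type arrays, 10.99, 11.01 and 10.98 on the CD4-cre arrays and 11.01, 10.91 and 10.79 on the Foxp3-cre arrays. All 6 knockout arrays lay below all wild type arrays. In CD4-cre the difference was -0.23 (SE 0.08, limma adjusted p = 0.245), and it was -0.33 (SE 0.08, limma adjusted p = 0.06) in Foxp3-cre.

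Cd4, the co-receptor that carries LCK and the marker used in the separation, read 8.91, 9.23 and 9.04 on the wild type arrays, 8.77, 8.69 and 8.79 on the CD4-cre arrays and 9.10, 8.87 and 8.94 on the Foxp3-cre arrays. The CD4-cre arrays lay below the wild type arrays and the Foxp3-cre arrays overlapped them. In CD4-cre the difference was -0.31 (SE 0.10, limma adjusted p = 0.23), and it was -0.09 (limma adjusted p = 0.63) in Foxp3-cre, and the direct contrast of the knockouts gave 0.22 (limma adjusted p = 0.459). A second Cd4 probe set differed by -0.04 and 0.10, so the lower reading in CD4-cre was that of the brighter probe set alone.

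Cd28, the main costimulatory receptor, showed how a single array can shape a difference. It read 10.09, 9.23 and 10.09 on the wild type arrays, 10.12, 10.09 and 10.17 on the CD4-cre arrays and 10.09, 10.16 and 10.06 on the Foxp3-cre arrays. Its differences of 0.32 and 0.30 became 0.04 and 0.02 without wild type replicate 2. The others were within 0.19 of wild type: Cd6, a receptor that tunes TCR signals, was 0.19 higher in CD4-cre with no overlap (limma adjusted p = 0.306) and 0.08 higher in Foxp3-cre. Cd5, a related inhibitory receptor, differed by 0.05 and 0.03. Cd2, an adhesion receptor, differed by 0.04 and -0.10, and Ptprc, the CD45 phosphatase that keeps LCK ready to act, by 0.10 and 0.09.

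ZAP70, the kinase that docks on the phosphorylated chains, had 1 of the flattest profiles, while Lck, whose kinase acts before it, was not measured. Zap70 read 10.19, 10.03 and 10.06 on the wild type arrays, 10.07, 10.07 and 10.05 on the CD4-cre arrays and 10.07, 10.07 and 10.09 on the Foxp3-cre arrays. Every knockout array lay within the wild type range, and the differences were -0.03 (limma adjusted p = 0.854) and -0.02 (limma adjusted p = 0.894). Fyn, the Src family kinase that works beside LCK, differed by -0.05 in both knockouts on its brighter probe set. On another it differed by 0.13 and 0.24, with wild type replicate 2 at 8.68 beside 9.09 and 9.14. Csk, the kinase that shuts the Src family kinases off, differed by 0.06 and -0.04.

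The Tec family kinases, which activate phospholipase C gamma, were more variable. Txk read 7.73, 6.73 and 7.66 on the wild type arrays, 6.82, 6.89 and 6.81 on the CD4-cre arrays and 6.89, 6.61 and 6.65 on the Foxp3-cre arrays. Wild type replicates 1 and 3 lay far above the other 7 arrays, and replicate 2 lay among the knockouts. With all arrays CD4-cre differed by -0.53 (SE 0.23, limma adjusted p = 0.343), and the difference was -0.65 (limma adjusted p = 0.144) in Foxp3-cre. Without replicate 2 it was -0.85 (limma adjusted p = 0.0068) and -0.97 (limma adjusted p = 0.00202), so whether Txk was called rested on that array.

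Tec, the founding member of the family, differed by -0.07 in CD4-cre and by -0.31 in Foxp3-cre. The second value came mainly from Foxp3-cre replicate 1 at 6.85, since the other Foxp3-cre arrays read 7.49 and 7.66 beside 7.66, 7.68 and 7.59 in wild type.

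**Figure D2:**
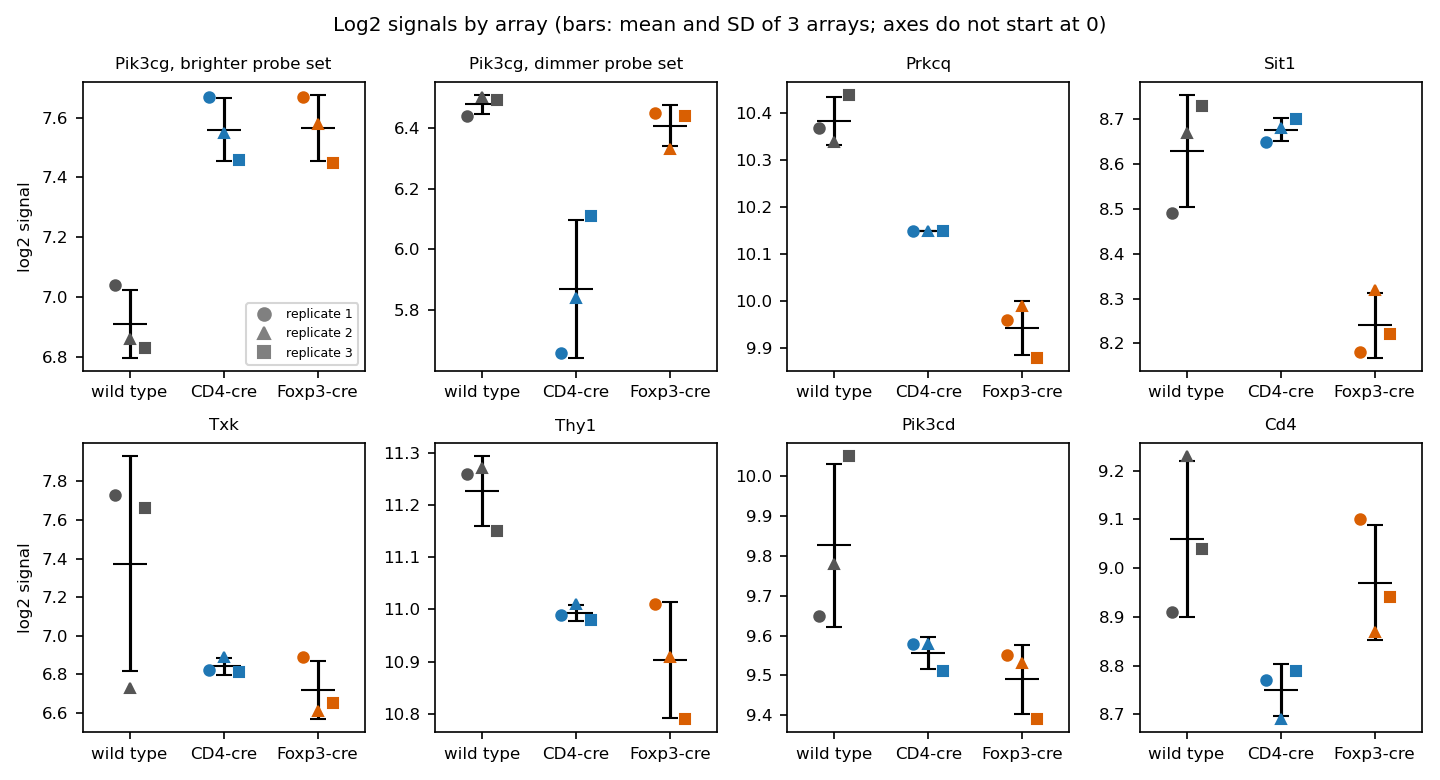
Points are the log2 signals of single arrays for the members that the text follows most closely, with 3 arrays per group and bars for the group mean and SD, Pik3cg being shown by both of its probe sets; the axes do not start at 0 and differ between panels. The 6 knockout arrays of the brighter Pik3cg probe set lie between 7.45 and 7.67, above the wild type arrays at 6.83 to 7.04, while only the Foxp3-cre arrays of Sit1 lie below the rest.

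Of the 9 adaptors tested, Sit1 fell in Foxp3-cre and none was called in CD4-cre. SIT1 is a small membrane adaptor that recruits the phosphatase SHP2 and lowers TCR signalling. It read 8.49, 8.67 and 8.73 on the wild type arrays, 8.65, 8.68 and 8.70 on the CD4-cre arrays and 8.18, 8.32 and 8.22 on the Foxp3-cre arrays. All 3 Foxp3-cre arrays lay below the 6 others, and CD4-cre lay within the wild type range. The difference was -0.39 in Foxp3-cre (SE 0.08, 95% interval -0.58 to -0.20, limma adjusted p = 0.0425), or 1.31-fold lower, and 0.05 in CD4-cre (limma adjusted p = 0.801).

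The direct contrast of the knockouts gave Sit1 a difference of -0.44 (SE 0.08), the largest of the 40 members there, with an unadjusted p of 0.000505 and a limma adjusted p of 0.155. That contrast passed the threshold without wild type replicate 2 (limma adjusted p = 0.0433), an array that enters it only through the estimate of spread. The call in Foxp3-cre was near the threshold: it was kept in 2 of 9 fits that each left out 1 array, those without wild type replicate 1 or 2. In the other fits, without wild type replicate 3 or any 1 of the 6 knockout arrays, the limma adjusted p reached up to 0.135, and the differences over all 9 fits ran from -0.46 to -0.33.

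The other adaptors were not called in either knockout. LAT and SLP-76 (Lcp2) form the core of the complex that ZAP70 builds. Lat differed by -0.05 and -0.14. Without wild type replicate 2 it differed by -0.17 and -0.25 (limma adjusted p = 0.0507 in Foxp3-cre). Lcp2 differed by 0.17 and 0.05, which became -0.07 and -0.19 without that array. A dimmer Lcp2 probe set above the threshold differed by -0.09 and -0.27 (limma adjusted p = 0.115 in Foxp3-cre). Grap2, which links LAT and SLP-76, differed by -0.18 and -0.11. Vav1, the exchange factor that joins them to the cytoskeleton, was -0.21 in CD4-cre with no overlap (limma adjusted p = 0.31) and -0.05 in Foxp3-cre. Fyb, the adaptor for integrin activation, differed by -0.20 and -0.18. Pag1, which anchors CSK, differed by -0.07 and 0.12, Trat1, a TCR-associated transmembrane adaptor, by 0.03 and 0.07, and Sh2d1a, the adaptor of the SLAM receptors, by 0.10 and 0.10. Without wild type replicate 2 the values were -0.30 and -0.10 for Pag1, -0.23 and -0.19 for Trat1, and -0.12 and -0.13 for Sh2d1a.

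The brakes in the phosphatase and ubiquitin ligase group did not pass the test in either knockout. Ptpn22, which dephosphorylates LCK and ZAP70, differed by 0.03 and 0.13, and Ptpn6, which encodes SHP-1, by -0.05 and 0.13. Without wild type replicate 2 they differed by -0.16 and -0.06 and by -0.17 and 0.02. Cbl, a ligase that marks active receptors for removal, was 0.26 higher in CD4-cre and 0.30 higher in Foxp3-cre (limma adjusted p = 0.344 and 0.169), with wild type arrays at 7.67, 7.83 and 8.14 and all knockout arrays between 8.11 and 8.22. The highest wild type array overlapped the knockouts.

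Pik3cg was the member that rose in both knockouts. It encodes p110 gamma, the catalytic subunit of a phosphoinositide 3-kinase that is best known for acting behind chemokine and other G protein coupled receptors. Its brighter probe set read 7.04, 6.86 and 6.83 on the wild type arrays, 7.67, 7.55 and 7.46 on the CD4-cre arrays and 7.67, 7.58 and 7.45 on the Foxp3-cre arrays. The knockouts matched each other and lay above every wild type array. The difference was 0.65 in CD4-cre (SE 0.10, 95% interval 0.43 to 0.86, limma adjusted p = 0.0193) and 0.66 in Foxp3-cre (SE 0.10, 95% interval 0.44 to 0.87, limma adjusted p = 0.0129), which are 1.57-fold and 1.58-fold. The knockouts differed from each other by 0.01.

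The other Pik3cg probe set did not rise. It read 6.44, 6.50 and 6.49 on the wild type arrays, 5.66, 5.84 and 6.11 on the CD4-cre arrays and 6.45, 6.33 and 6.44 on the Foxp3-cre arrays. The CD4-cre arrays lay below the other 6, opposite to the brighter probe set. Its difference was -0.61 in CD4-cre (SE 0.11, limma adjusted p = 0.0561) and -0.07 in Foxp3-cre (limma adjusted p = 0.745), and the average of both probe sets moved by 0.02 and 0.29. The direction of Pik3cg therefore depends on the probe set, and which part of the transcript each one reads was not tested. The call on the brighter probe set was kept in Foxp3-cre in 9 of 9 fits leaving out 1 array, with differences from 0.60 to 0.72. In CD4-cre it was kept in 4 of 9, with differences from 0.59 to 0.72, and was lost, at a limma adjusted p of up to 0.135, without wild type replicate 3, without any 1 of the CD4-cre arrays, or without Foxp3-cre replicate 2.

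The other lipid and inositol enzymes were not called. Pik3cd, the p110 delta subunit that acts behind the TCR and CD28, read 9.65, 9.78 and 10.05 on the wild type arrays, 9.58, 9.58 and 9.51 on the CD4-cre arrays and 9.55, 9.53 and 9.39 on the Foxp3-cre arrays. All knockout arrays lay below wild type, with differences of -0.27 (limma adjusted p = 0.298) and -0.34 (limma adjusted p = 0.109). With all arrays, other Pik3cd probe sets differed by -0.07 and -0.01, and by 0.09 and 0.03. Wild type replicate 2 read lowest of all arrays on both, at 6.79 and 4.87. On the first, the knockout arrays, at 7.42 to 7.72, all lay below wild type replicates 1 and 3. On the second they overlapped those replicates. Differences of these probe sets without replicate 2 were not tested. Pik3r1, the p85 alpha regulatory subunit, differed by -0.10 and -0.09 on its brightest probe set and by -0.06 and -0.06 on another. It differed by 0.36 and 0.50 on a further probe set, where wild type replicate 2 read 5.65 beside 6.64 and 6.98.

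Itpkb, which phosphorylates inositol trisphosphate and so shapes the calcium branch, read 8.83, 9.12 and 9.10 on the wild type arrays, 8.98, 8.91 and 8.96 on the CD4-cre arrays and 8.74, 8.77 and 8.73 on the Foxp3-cre arrays. The Foxp3-cre arrays lay below all others, with differences from wild type of -0.06 and -0.27 (limma adjusted p = 0.128 in Foxp3-cre). The diacylglycerol kinases Dgka and Dgkz, which remove the lipid that recruits RASGRP1 and protein kinase C theta, differed by 0.04 and -0.09 and by -0.03 and -0.17. Plcg1, the phospholipase itself, read 3.74 to 4.04 over the 9 arrays, below the threshold for testing, with differences of 0.00 and -0.11.

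Prkcq fell in Foxp3-cre. It encodes protein kinase C theta, which couples diacylglycerol to NF-kB at the contact with the antigen-presenting cell. It read 10.37, 10.34 and 10.44 on the wild type arrays, 10.15, 10.15 and 10.15 on the CD4-cre arrays and 9.96, 9.99 and 9.88 on the Foxp3-cre arrays. The 3 groups did not overlap, with CD4-cre in between. The difference was -0.44 in Foxp3-cre (SE 0.07, 95% interval -0.60 to -0.28, limma adjusted p = 0.0159), or 1.36-fold lower.

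In CD4-cre the Prkcq difference was -0.23 (SE 0.07, limma adjusted p = 0.195), which was not called, and the knockouts differed by -0.21 (SE 0.07, limma adjusted p = 0.299). A larger fall in Foxp3-cre than in CD4-cre was thus not established by the test of that difference. The Foxp3-cre call was kept in 7 of 9 fits leaving out 1 array, with differences from -0.47 to -0.41, and was lost without wild type replicate 3 (limma adjusted p = 0.0515) or Foxp3-cre replicate 3 (limma adjusted p = 0.0666).

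At the ends of the branches, no NFAT gene was called. Nfatc1, which is itself induced by NFAT, read 8.43, 8.18 and 8.46 on the wild type arrays, 8.55, 8.56 and 8.60 on the CD4-cre arrays and 8.57, 8.81 and 8.79 on the Foxp3-cre arrays. All knockout arrays lay above wild type, with differences of 0.22 (limma adjusted p = 0.371) and 0.37 (limma adjusted p = 0.0824). The related Nfatc2 lay the other way, at -0.20 and -0.27 with the Foxp3-cre arrays below wild type (limma adjusted p = 0.126), and Nfatc3 differed by 0.08 and 0.16. Rasgrp1, the exchange factor that turns on Ras, differed by 0.11 and 0.04, and Bcl10, an adaptor on the way to NF-kB, by 0.20 and 0.06. Without wild type replicate 2 the Bcl10 values were -0.06 and -0.20.

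The promoters of the 3 called members are shown because these genes carry the calls of the set. Each is the 250 bases before the RefSeq start site in GRCm38.p6, written 5' to 3' on the strand of the gene. Capitals in Sit1 (chr4:43483710-43483959, minus strand) mark the letters GGGCGG, those in Prkcq (chr2:11172132-11172381, plus strand) the same letters on the opposite strand, and those in Pik3cg (chr12:32208660-32208909, minus strand) GGAAGT on the opposite strand.
Sit1: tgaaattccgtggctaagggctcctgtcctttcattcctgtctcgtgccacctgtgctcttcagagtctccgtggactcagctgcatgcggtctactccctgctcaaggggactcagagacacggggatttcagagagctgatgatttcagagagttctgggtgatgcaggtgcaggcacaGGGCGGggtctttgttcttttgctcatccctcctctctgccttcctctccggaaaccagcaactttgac
Prkcq: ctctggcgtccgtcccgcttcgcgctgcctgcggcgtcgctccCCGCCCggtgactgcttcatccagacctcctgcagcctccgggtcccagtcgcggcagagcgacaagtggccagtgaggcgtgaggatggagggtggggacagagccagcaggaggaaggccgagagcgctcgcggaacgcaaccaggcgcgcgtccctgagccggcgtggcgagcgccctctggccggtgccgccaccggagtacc
Pik3cg: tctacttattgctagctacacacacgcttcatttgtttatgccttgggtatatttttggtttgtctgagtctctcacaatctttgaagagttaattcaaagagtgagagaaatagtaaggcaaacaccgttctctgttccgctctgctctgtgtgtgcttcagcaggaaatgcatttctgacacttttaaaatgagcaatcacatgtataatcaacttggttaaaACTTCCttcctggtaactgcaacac
They differ in base composition, with 72.4% G and C in Prkcq, 54.8% in Sit1 and 38.8% in Pik3cg, and Pik3cg has 2 start sites in the table.

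Over the whole set, 35 of the 45 listed genes matched the RefSeq promoter table, with 52 windows among 32851. GGAAGT, the core letters of many ETS factor sites, was found on either strand in 23 of the 52 member windows, or 44.2%, against 19.7% of all windows. GGGCGG, the GC box, was in 46.2% against 32.7%. The RUNX letters TGTGGT were in 9.62% of member windows against 14% of all. The NFAT letters GGAAAA were in 13.5% against 20.4%, the forkhead letters TGTTTAC in 7.69% against 3.17%, and the TATA letters TATAAA in 9.62% against 12.4%. A pair of these motifs may overlap in a window, several windows can belong to 1 gene, and a match describes the letters without showing a site.

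**Figure D3:**
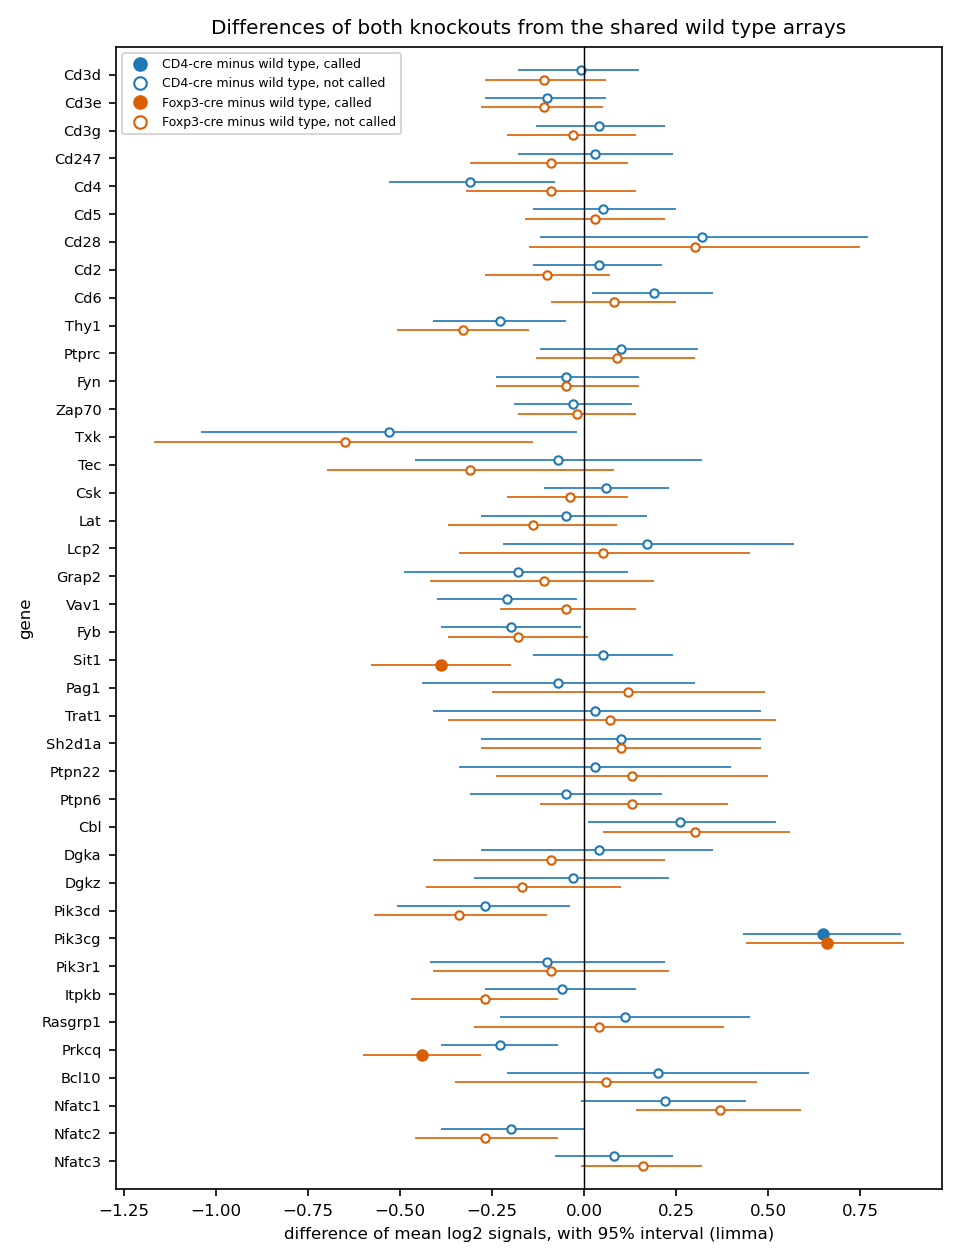
Points give the difference of mean log2 signal from wild type for each of the 40 tested members in CD4-cre (blue) and in Foxp3-cre (orange), with 95% intervals from limma, members being ordered by role; filled points were called after adjustment over all genes. Most intervals cross 0 in both knockouts, and the filled points are Pik3cg at 0.65 and 0.66, Prkcq at -0.44 and Sit1 at -0.39.

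Members with more than 1 probe set gave a second reading of the same RNA. Of 68 probe sets of the members, 59 passed the threshold, and when all 11363 probe sets were tested singly the counts of member probe sets called were 1 in CD4-cre, 3 in Foxp3-cre and 0 between the knockouts. The shares of all probe sets called were 0.44%, 2.86% and 0.0088%. The 19 additional probe sets, from 15 members, had the sign of the brightest one in 11 cases and the opposite in 8 in CD4-cre, and in 9 and 10 cases in Foxp3-cre. With all 9 arrays, the sign of a small difference thus often did not carry over from 1 probe set of a gene to another. These counts include wild type replicate 2, which read far below the other wild type arrays on some additional probe sets. An example is 6.81 beside 8.68 and 8.16 on a Cd247 probe set. Signs were not counted without that array, so its part in the disagreement was not tested.

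The rest of the pathway was read in 7 further lists. Over all genes tested, the share called was 0.659% in CD4-cre and 3.36% in Foxp3-cre. Of 18 other costimulatory and inhibitory receptors, 1 rose in CD4-cre (5.56%) and 1 rose and 1 fell in Foxp3-cre (11.1%). Cd81, a tetraspanin that associates with receptors at the T cell surface, rose by 0.64 in CD4-cre (SE 0.10, limma adjusted p = 0.0262) and by 0.54 (limma adjusted p = 0.0256) in Foxp3-cre. Cd160, a receptor of cytotoxic cells, fell by 1.09 in Foxp3-cre (limma adjusted p = 0.0148), and its other probe sets differed by -1.02 and -0.78. In CD4-cre all Cd160 arrays lay below wild type at -0.76 (limma adjusted p = 0.0921), and without wild type replicate 2 it was called there too, at -0.54 (limma adjusted p = 0.0312). Of 29 other adaptors, kinases and cytoskeletal regulators, 1 fell in each knockout, or 3.45%, which in Foxp3-cre is near the share of all genes. It was Hcls1, an actin regulator phosphorylated after receptor engagement, at -0.69 (limma adjusted p = 0.0148) and -0.53 (limma adjusted p = 0.0233).

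Of 24 other negative regulators, 0 were called in CD4-cre, where Dusp2 differed by 0.44 and Dusp6 by -0.29 (0.25 and -0.49 without wild type replicate 2). In Foxp3-cre 1 rose and 1 fell, or 8.33% against 3.36% of all genes. Ptpn11, which encodes SHP2, the phosphatase that SIT1 recruits, rose by 0.35 (limma adjusted p = 0.0412), while its other probe set above the threshold differed by 0.06. Ptpn18, a phosphatase of Src family regulation, fell by 0.34 (limma adjusted p = 0.0425). Of 12 genes of the PI3K, AKT and mTOR branch, 1 fell in Foxp3-cre, or 8.33%, and 0 were called in CD4-cre. Foxo1, the transcription factor that AKT expels from the nucleus, fell by 0.46 (limma adjusted p = 0.0448), and its other probe sets above the threshold differed by -0.35 and -0.39 there; in CD4-cre its values were -0.39, 0.09 and -0.22.

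The calcium list and the Ras and MAP kinase list had 0 calls by limma in any contrast among 17 and 17 genes tested. At an unadjusted p under 0.05 they held 2 and 2 genes for CD4-cre, or 11.8% and 11.8%, against 14.1% of all genes tested. For Foxp3-cre they held 3 and 2, or 17.6% and 11.8%, against 21.3%. The widest differences in CD4-cre were Stim1 at 0.30, the calcium sensor of the store, and Orai1 at 0.27, its channel, then Mapk9 at 0.45, a JNK kinase, and Sos1 at 0.29, a Ras exchange factor. In Foxp3-cre they were Itpr2 at -0.35 and Camk2d at 0.31, and Mapk9 at 0.30 and Map2k3 at 0.26. Without wild type replicate 2 Mapk9 was at 0.06 and -0.08, Camk2d at 0.01 and Itpr2 at -0.18 in Foxp3-cre, and Sos1 at 0.19, Stim1 at 0.21 and Orai1 at 0.19 in CD4-cre.

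Genes that T cells induce after TCR stimulation lie further down the chain, though bulk RNA does not show which cells transcribed them. Of 21 tested, 2 fell in each knockout and 0 rose, or 9.52%, against 0.659% and 3.36% of all genes. At an unadjusted p under 0.05, 4 and 9 passed in CD4-cre and Foxp3-cre, or 19% and 42.9%. The shares of all genes tested were 14.1% and 21.3%. Xcl1, a chemokine gene, fell by 0.78 (limma adjusted p = 0.0135) in CD4-cre and by 1.16 (limma adjusted p = 0.00106) in Foxp3-cre. Tnfrsf9, which encodes the costimulatory receptor 4-1BB, fell by 0.45 (limma adjusted p = 0.0382) and by 0.54 (limma adjusted p = 0.0107), and its other probe set above the threshold differed by -0.07 and -0.23. The median difference of the list was 0.10 in CD4-cre and -0.01 in Foxp3-cre.

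Between the knockouts 0 genes of the 7 lists were called by limma. At an unadjusted p under 0.05, 7 of the 21 induced genes passed there, against 840 of all 7436 genes tested. The widest of the 21 were Nr4a1, an immediate early receptor gene that reports TCR strength, at -0.64 and Ccl3, a chemokine gene, at -0.54.

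Signals of some other cell types differed between the groups. The neutrophil list, with 10 of 10 markers above the threshold, had list means of 7.78 to 8.75 over the wild type arrays, 8.23 to 9.08 in CD4-cre and 9.16 to 10.14 in Foxp3-cre, where 6 of its 10 genes rose. The monocyte and macrophage list, with 7 of 10 markers above the threshold, ran from 6.07 to 6.58, from 5.82 to 7.0 and from 6.58 to 8.13. Within every group, replicate 3 read highest on the neutrophil list and on the macrophage list. The NK cell list, with 6 of 6, ran from 7.95 to 8.03 in wild type, from 6.96 to 7.68 in CD4-cre and from 6.98 to 7.62 in Foxp3-cre, where 2 of its genes were called lower. All 6 NK markers had lower means than wild type in both knockouts. The arrays did not overlap for 5 in CD4-cre and 4 in Foxp3-cre, or 83.3% and 66.7%, against 21% and 23.4% of all genes. The mean over the 41 members was 9.12 to 9.34 for wild type, 9.23 to 9.25 for CD4-cre and 9.18 to 9.23 for Foxp3-cre.

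B cell markers, 6 of 9 above the threshold, spread from 6.44 to 7.78 within Foxp3-cre, against 6.57 to 7.16 in wild type and 6.93 to 7.06 in CD4-cre. The erythroid markers had 0 of 4 above it and the dendritic cell markers 2 of 5. Txk is also transcribed in NK cells and Pik3cg and Hcls1 in myeloid cells, and the part of these cells in the differences of Pik3cg, Txk, Prkcq, Sit1 and Xcl1 was not tested.

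**Figure D4:**
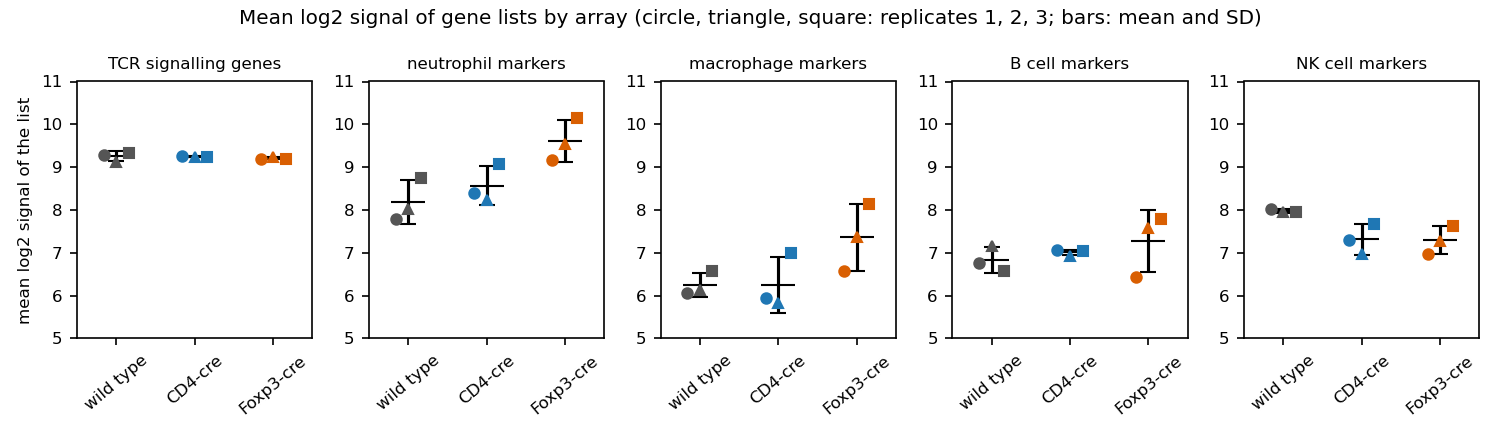
Points are the mean log2 signal of a list on each of the 9 arrays, for the 41 TCR signalling members and for the markers of 4 other cell types, with bars for the mean and SD of 3 arrays. The member means lie between 9.12 and 9.34 on all 9 arrays, while the neutrophil means reach 9.16 to 10.14 on the Foxp3-cre arrays.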

How the data were processed

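RNA of 3 groups of 3 samples was measured on 1 Affymetrix array each, and groups and replicate numbers came from the labels. The deposited values are log2 signals per probe set, made by the authors with RMA per the submitters' processing notes. RMA corrects background, normalizes between arrays, which removes a change common to all genes, and summarises probes by a median-based fit. Its version is not given in these sources. The 9 array medians lay between 5.37 and 5.45, and 3 arrays a group limit the precision, with a median standard error of 0.11.

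Of 22690 probe sets, 64 controls were left out, and 20380 carried 1 gene symbol in the platform annotation, which can be old. Each gene was read from its brightest probe set, and genes at or above the 40th percentile of gene means were tested. Differences were fitted with limma 3.58.1 in R 4.3.3 (lmFit, eBayes) over all 9 arrays, two-sided, with Benjamini-Hochberg adjustment over 7436 genes within each of 3 contrasts. The fit had 6 residual and 3.37 prior degrees of freedom. It was tested on simulated data. The smallest p of an exact permutation test of 3 arrays against 3 is 0.1, and that test was not run.

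The members and gene lists were chosen with earlier results of these data known. All members are accounted for, and those called, the CD3 and zeta chains, Cd4 and Zap70 are given by array. From each pathway list up to 4 called genes are named, or the 2 widest where none was called. The result of 1 further list is not reported here. Members and probe sets shown by array beyond these were chosen after their values were seen. Promoter letters come from RefSeq (GRCm38.p6). Alternatives were other probe set rules, filters, normalizations, variance models, array weights, fits of only 2 groups, a replicate block, and leaving out each array.

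Whether equal replicate numbers pair samples was checked by the correlation of deviations from group means. It was 0.25, 0.20 and 0.25 between wild type and Foxp3-cre, where the check was met. The labels do not say what a number stands for, so correlations of this size do not establish a pairing. The values given have no block, and the fit with the block is an alternative. The correlation was 0.12, -0.01 and 0.23 between wild type and CD4-cre, and 0.19, -0.03 and 0.49 between the knockouts, where the check was not met.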

Additional observations from a re-analysis of the deposited data

How the results depend on the processing

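Counts of called members depended most on how arrays were weighted and on which arrays entered. With array weights, limma called 9 members in CD4-cre, 12 in Foxp3-cre and 4 between the knockouts, beside 17.5%, 20.7% and 10.9% of all genes. In fits of only the 2 groups compared the counts were 0, 0 and 1, the last being Sit1, beside 0.296%, 0.215% and 0.74% of all genes. The mean of all probe sets of a gene gave 0 members in CD4-cre, and in Foxp3-cre 3, which were Thy1, Sit1 and Prkcq. The shares of all genes there were 0.605% and 3.81%. Leaving out 1 array at a time gave 0 to 2 members in CD4-cre, 1 to 5 in Foxp3-cre and 0 to 1 between the knockouts. The share of all genes called in those fits ran from 0.0538% to 2.57%, from 0.955% to 7.63% and from 0.0134% to 0.968%. On its other probe set Pik3cg turned to -0.61 in CD4-cre and -0.07 in Foxp3-cre, an alternative chosen after seeing the data, as were testing probe sets singly and counting unadjusted p-values and non-overlap without wild type replicate 2. Thy1 was called in Foxp3-cre with arrays centred on their medians and with trend and robust eBayes. With no filter Sit1 was not called, leaving 2 members in Foxp3-cre, beside 1.51% of all genes. The cause of these shifts was not tested.

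With the replicate block the counts of members were 1, 3 and 0, and no member's call changed. Over all genes the block gave 67, 354 and 96 calls in place of 49, 250 and 1. By deviations over all genes, 7 of 9 arrays lay closest to an array of their own number, which is a hint from the data and not from the design. The median half-width of a member's 95% interval was 0.22, which is the usual precision of a member's difference on 3 arrays a group.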

Other observations

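Exactly equal values, to every decimal deposited, were common in this table. Prkcq had the same log2 signal on all 3 CD4-cre arrays, and 32.5% of the tested members, against 34.2% of all genes tested, had an exactly equal value on at least 2 arrays. Whether this affects the SD within a group was not tested. The median SD of the members was 0.16 over the wild type arrays, 0.04 over CD4-cre and 0.07 over Foxp3-cre, against 0.18, 0.06 and 0.09 for all genes tested.

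Wild type replicate 2 read low for many genes, with a median gap to the mean of the other wild type arrays of -0.11 over the members and -0.07 over all genes tested. It lay over 0.5 below the mean of the other wild type arrays for 8 of 40 members and over 0.5 above for 0, against 14.5% and 5.42% of all genes tested. The 8 members were Txk at -0.96, Cd28 at -0.86, Trat1 at -0.79, Bcl10 at -0.78, Lcp2 at -0.74, Pag1 at -0.68, Sh2d1a at -0.68 and Ptpn22 at -0.57. Its RNA quality control signals are given above, and their part in these gaps was not tested.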
